A study of Mus musculus with 12 samples.

Results

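Mandibular lymph nodes of mice lacking the microRNA miR-451a were compared with those of wild-type mice after sensitization of the skin and before any challenge of the ear. The comparison takes the 3 knockout libraries (KO_se) and the 3 wild-type libraries (WT_se) harvested on day 9, which are 6 of the 12 libraries of the series, and covers every gene. Mice of both groups had received 100 µl of 0.5% 1-fluoro-2,4-dinitrobenzene (DNFB), a contact allergen, on the shaved abdomen on days 0, 1 and 2. The other 6 libraries, WT_DTH and KO_DTH, came from mice given the same sensitization plus 20 µl of 1% DNFB on the left ear on day 9, with harvest 24 hours later, on day 10. They entered the model and are used below for comparison only. The labels give neither the strain and age of the mice nor how the knockout allele was made, and whether the libraries within a group are separate animals is not stated. The p-values therefore measure the spread between these libraries. Sex-linked genes, given below, set replicate 3 apart from replicates 1 and 2 in both groups, so the libraries of a group are not all repeats of 1 sample. Whether replicates 1 and 2 differ only technically is not known.

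MicroRNAs pair through bases 2 to 8, the seed, with matching sites in the 3′ untranslated regions (UTRs) of messenger RNAs and lower the output of those messages. miR-451a is made from a short hairpin beside that of miR-144, is abundant in red blood cells and is matured by Argonaute 2 rather than Dicer. A contact allergen is carried from the skin to draining nodes, where T cells are primed. Part of that response is of type 17: T cells of this class secrete IL-17A, and in skin-draining nodes of mice many of these cells carry a γδ T cell receptor.

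The mature sequence of miR-451a is printed here because it is the molecule removed, with capitals for the seed, beside the matching stretches of the UTRs of 2 genes reported as its targets, Cab39 and Ywhaz, with capitals for the 7 bases AACGGTT that pair with the seed. The microRNA lies at chr11:78073186-78073207 on the plus strand (RefSeq, GRCm38.p6).
miR-451a: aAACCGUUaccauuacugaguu
Cab39: gctgttaagtgAACGGTTtttcattttac
Ywhaz: gtaagggcagaAACGGTTcacattccatt

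Mir451a itself was not analysed here. Its neighbour Mir144 had 0 counts in 5 of the 6 libraries and 1 count in KO_se replicate 2, so the targeted locus gives no check of the knockout label. Depth ran from 39365983 counts in WT_se replicate 1 to 58405576 in KO_se replicate 1. Markers of lymph node were present in all 6: the T cell gene Cd3e was at 125 to 199 CPM (counts scaled to library size), the B cell gene Ms4a1 at 175 to 379 CPM and the homing receptor gene Ccr7 at 900 to 1201 CPM. Markers of salivary gland, which adjoins the mandibular node, were present too, and all 23 genes of that list were measured. Their summed share of counts was 7.11 to 14.6% in WT_se and 2.85 to 6.88% in KO_se, lower in all 3 knockout libraries (difference -6.01 points, two-sided exact permutation p = 0.1, the smallest that 3 against 3 can give). Mitochondrially encoded genes took 13.8 to 19.1% and 11.9 to 16.0% (difference -3.36 points, exact permutation p = 0.2). All 23 salivary genes had negative log2 fold changes (median -1.38) and none passed by edgeR, with 0 to 4 called lower when 1 library was omitted. The number of genes called with 2 salivary components as covariates is given beside most groups of genes below. These components do not track this share alone: with them the median log2 fold change of 5 sex-linked genes went from -0.11 to -5.52. They also overlap with genotype and leave fewer residual degrees of freedom. A call lost with them therefore cannot be assigned to the gland share. Xist exceeded the Y-linked gene Ddx3y in replicate 3 of both groups and in no other of the 6 libraries.

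Of 20034 genes tested, 1035 (5.17%) passed an adjusted p of 0.05 in edgeR's quasi-likelihood test. Of these, 754 (3.76%) were higher and 281 (1.4%) lower in the knockout, with median log2 fold changes of 0.67 and -0.53 against -0.01 over all genes. More than 2-fold differences were called in 309 genes (1.54%), 255 higher and 54 lower. The genes that rose had a median level of 23.3 CPM and those that fell 60.6 CPM, against 5.89 CPM over all genes. The CPM values of the groups did not overlap in any of the 1035 genes, and did not overlap in 28.0% of all genes. The number of calls depended on single libraries: it was 427 without WT_se replicate 1, 684 without WT_se replicate 2, 568 without WT_se replicate 3, 520 without KO_se replicate 1, 369 without KO_se replicate 2 and 748 without KO_se replicate 3. With the 2 salivary components it was 172, of which 159 were among the 1035. The DESeq2 Wald test, with its own scaling, called 1316 genes higher and 985 lower, so 57.2% of its calls were higher against 72.9% here. In these bulk samples, more cells of a type and more RNA per cell cannot be told apart.

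**Figure D1:**
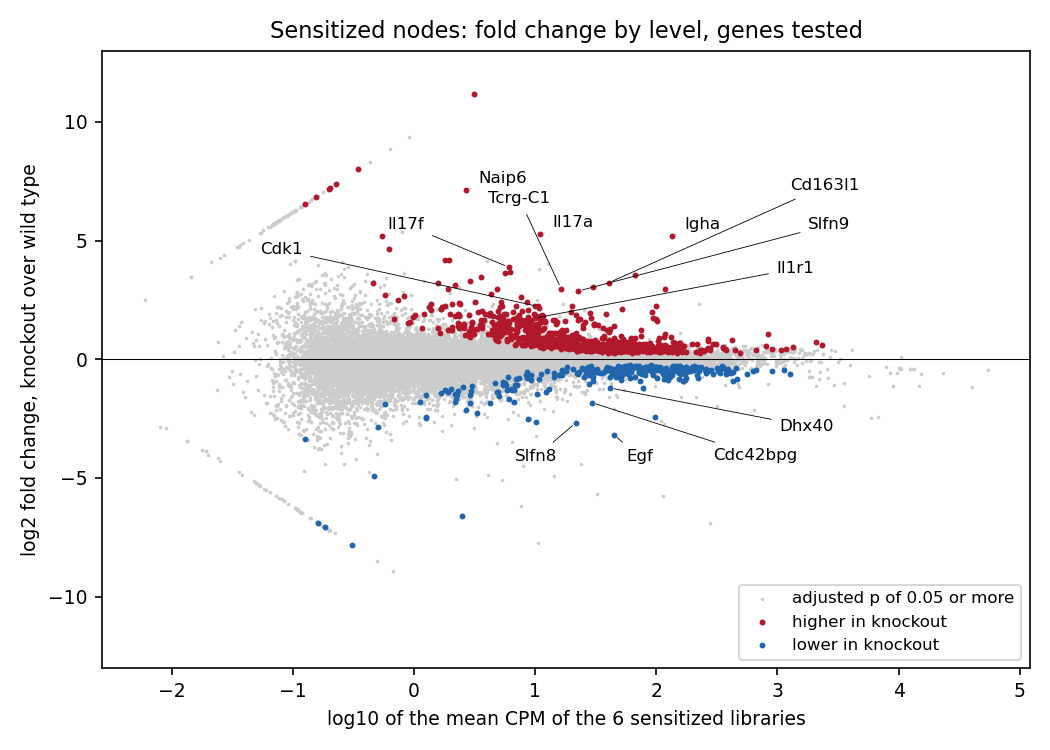
Log2 fold change of knockout over wild type (vertical axis) against log10 of the mean CPM of the 6 sensitized libraries (horizontal axis), 1 point per gene tested that had a count in these libraries. Red points are the 754 genes that rose, blue points the 281 that fell and grey points the genes that did not pass. Labels mark genes named in the text, Il17a at 5.26, Igha at 5.20 and Naip6 at 7.13 among them; points on the slanted lines at the left are genes with no count in 1 group.

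Several type 17 genes were higher in the knockout. Il17a (ENSMUSG00000025929), which encodes IL-17A, was at 0.345, 0.696 and 0.619 CPM in the 3 wild-type libraries and at 13.9, 21.2 and 29.1 CPM in the 3 knockout libraries. Every knockout library was far above every wild-type library. The means were 0.554 ± 0.184 and 21.4 ± 7.59 CPM (SD, n = 3 each), a log2 fold change of 5.26 ± 0.36 (SE of the model here and below; adjusted p = 1.6e-05). Il17f, which encodes the closely related cytokine IL-17F, was at 1.24, 0.777 and 0.31 CPM against 6.15, 10.8 and 17.1 CPM (log2 fold change 3.88 ± 0.53, adjusted p = 0.00218). The lowest knockout value was thus well above the highest wild-type value. Il1r1, the receptor for IL-1 that helps to drive IL-17 secretion, had means of 4.57 ± 0.949 and 15.2 ± 2.74 CPM (SD, n = 3; 1.73 ± 0.22, adjusted p = 0.00172). Irf4, a transcription factor of activated lymphocytes, rose by 0.67 ± 0.12 in log2 (adjusted p = 0.00704). Il17a, Il17f and Il1r1 passed in all 15 alternative fits, whereas Irf4 had an adjusted p of 0.0675 with the 2 salivary components.

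Of the 20 type 17 genes measured, 8 rose and 0 fell, with a median log2 fold change of 1.29 against -0.01 over all genes and 5.17% called. A further 3 of these calls were less stable. Il22, which encodes a cytokine acting on epithelium, was at 0 to 0.173 CPM in wild type and 0.748 to 0.983 CPM in the knockout (3.20 ± 0.80, adjusted p = 0.0389), and it missed the threshold whichever library was omitted (adjusted p 0.0573 to 0.109 over the 6 fits). Il23r, the receptor subunit for IL-23, rose by 1.58 ± 0.35 (adjusted p = 0.023) but gave 0.09, 0.0881, 0.0821 and 0.0691 without WT_se replicate 1, WT_se replicate 3, KO_se replicate 2 and KO_se replicate 3. Il17re, a receptor chain, rose by 1.37 ± 0.33 (adjusted p = 0.0323) and with 1 library omitted passed only without WT_se replicate 3 (0.0186). The count was therefore 5 without WT_se replicate 1, KO_se replicate 2 or KO_se replicate 3, 6 without any of the other 3 libraries, and 4 with the salivary components. Other members of the list did not pass, among them Ccr6 (0.41), Rora (0.30), Ahr (0.36), Stat3 (-0.19), Il17ra (-0.02) and Il17rc (-0.38) in log2 fold change. Ccl20 and Csf2 did not pass either, at 0 to 0.28 and 0 to 0.769 CPM, where this depth gives few counts.

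The genes of other T helper classes gave a different picture. None of 12 Th1 genes passed by edgeR (median -0.03; 0 or 1 when 1 library was omitted). Ifng, the Th1 cytokine, was at 1.83 ± 0.569 and 1.77 ± 0.365 CPM (SD, n = 3; log2 fold change -0.05 ± 0.33), and Tbx21, the Th1 transcription factor, at 5.39 ± 1.04 and 4.53 ± 0.632 CPM. None of 12 regulatory T cell and checkpoint genes passed (median 0.13), with Foxp3 at 46.9 ± 7.69 and 43.9 ± 1.4 CPM, and none of 12 cytotoxic and NK genes (median -0.18). Of 9 type 2 genes measured, 2 rose (22.2%, against 5.17% of all genes called): Areg by 1.03 ± 0.25 (adjusted p = 0.0341) and Ccr4 by 1.04 ± 0.26 (adjusted p = 0.0362). With 1 library omitted, both passed only without WT_se replicate 3 (0.0157 and 0.0429), and neither passed with the salivary components. Gata3, the type 2 transcription factor, was at 16.6 ± 0.49 and 14.6 ± 3.27 CPM and did not pass.

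**Figure D2:**
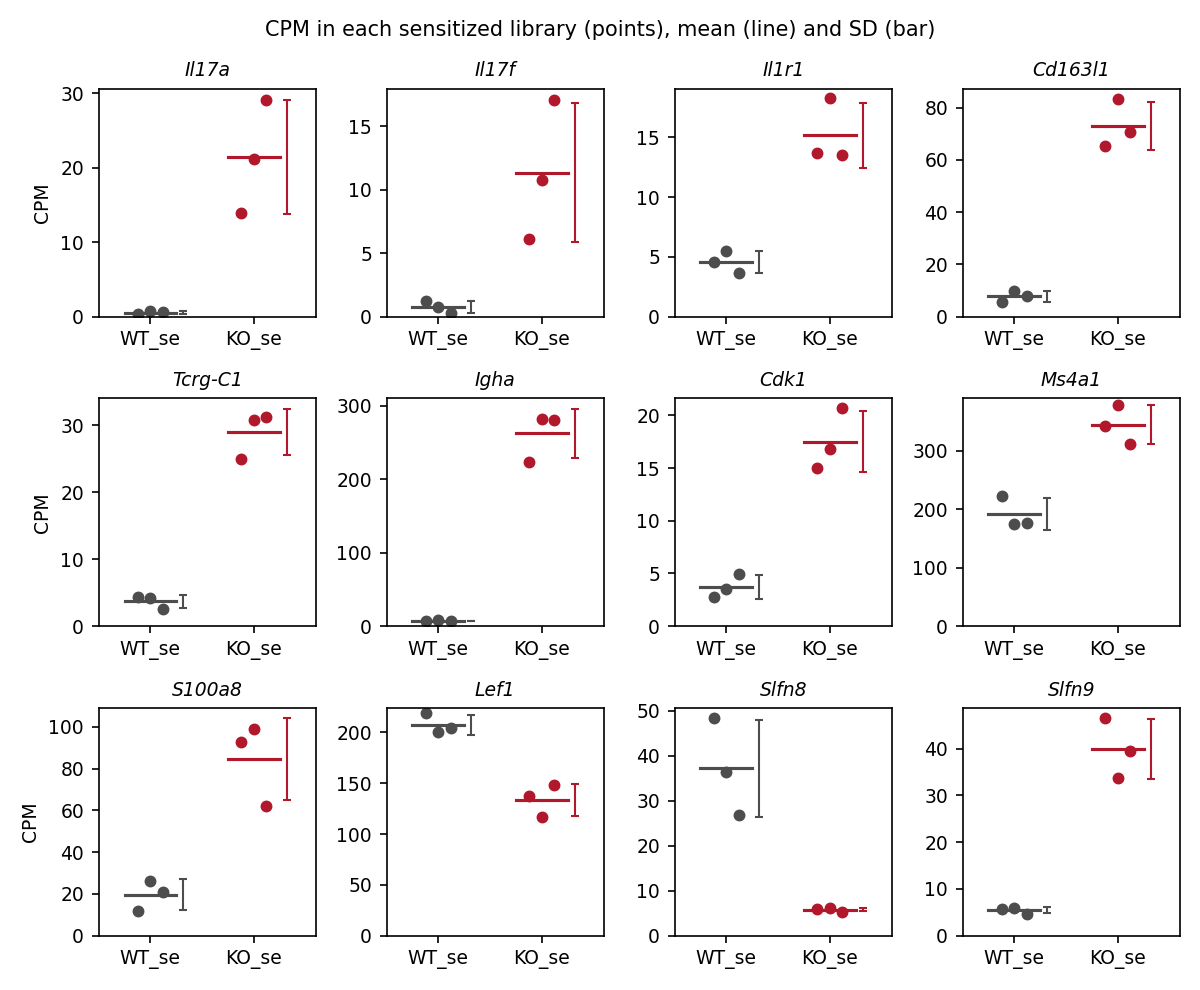
CPM (vertical axes, each from 0) of 12 genes in the 3 WT_se libraries (grey points) and the 3 KO_se libraries (red points), with the mean as a line and the SD as a bar. All 12 genes passed, and in each panel the 2 groups do not overlap, as in every gene that passed and in 28.0% of all genes. Lef1 and Slfn8 are lower in the knockout while the other 10 genes are higher.

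Genes of γδ T cells rose with those of type 17. Tcrg-C1 (ENSMUSG00000076749), a constant segment of the γ chain, was at 4.29, 4.26 and 2.55 CPM in wild type and at 25, 30.8 and 31.3 CPM in the knockout (2.97 ± 0.25, adjusted p = 0.000144). Cd163l1, which encodes the scavenger receptor SCART1 of IL-17-producing γδ T cells, was at 5.7, 9.83 and 7.93 CPM against 65.2, 83.3 and 70.9 CPM (3.22 ± 0.37, adjusted p = 0.00128). Both genes were several times higher in each knockout library than in any wild-type library. 5830411N06Rik, which encodes the related receptor SCART2, had means of 11.5 ± 3.69 and 45.0 ± 1.88 CPM (SD, n = 3; 1.96 ± 0.22, adjusted p = 0.00128), and Trdc, the constant segment of the δ chain, 16.4 ± 2.59 and 60.7 ± 13.1 CPM (1.89 ± 0.23, adjusted p = 0.00148).

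Single receptor segments were also called. Tcrg-V6, which is not on the γδ list and was named because it passed in both states, was at 0, 0.321 and 0.262 CPM in wild type and at 3.66, 4.22 and 3.12 CPM in the knockout (4.19 ± 0.76, adjusted p = 0.00908). This γ segment, known from IL-17-producing γδ T cells of skin and mucosa, had an adjusted p of 0.0788 with the salivary components. Trdv4, a δ segment, was at 0.905 ± 0.567 and 11.6 ± 1.16 CPM (SD, n = 3; 3.69 ± 0.53, adjusted p = 0.00276). The constant segments Tcrg-C2 (2.04 ± 0.29, adjusted p = 0.00245) and Tcrg-C4 (1.81 ± 0.23, adjusted p = 0.00172) rose as well. Some γ constant segments are near-identical in part, so the split of reads among those is uncertain.

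Of the 15 γδ genes measured, 10 rose and 0 fell (66.7% called, against 5.17% of all genes, median 1.81). The count was 9 or 10 when 1 library was omitted and 7 with the salivary components. The remaining members that rose were Trgv2, Cxcr6, a chemokine receptor of tissue T cells (1.56 ± 0.24, adjusted p = 0.00403), and Blk, a kinase that B cells also carry (0.96 ± 0.13, adjusted p = 0.00213). Trgv2 (1.81 ± 0.41, adjusted p = 0.0256) passed without KO_se replicate 1 (0.0385) but not when any other library was omitted. Sox13, a transcription factor of γδ T cells, was at 3.77, 3.35 and 11.2 CPM against 7.54, 11.1 and 12.8 CPM; the groups overlap and the gene did not pass (0.78 ± 0.49), though it did in challenged nodes (3.85, adjusted p = 0.0139). Over all 134 T cell receptor variable segments tested, 4 rose and 2 fell (4.48%, near the 5.17% over all genes), with a median of -0.21.

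Genes of DNA replication and mitosis formed the most completely changed list, with 28 of 30 members higher and 0 lower (93.3% called, against 5.17% of all genes). Its median log2 fold change was 1.67. Cdk1, the kinase that starts mitosis, was at 2.76, 3.48 and 4.95 CPM in wild type and at 15, 16.8 and 20.7 CPM in the knockout (2.22 ± 0.25, adjusted p = 0.00128). Ccnb1, its cyclin partner, had means of 3.46 ± 1.11 and 16.5 ± 2.57 CPM (SD, n = 3; 2.25 ± 0.29, adjusted p = 0.00183). Kif11, a motor of the mitotic spindle, had 10.7 ± 3.18 and 34.2 ± 4.47 CPM (1.67 ± 0.19, adjusted p = 0.00128). Mki67, the proliferation marker, was at 28.5, 47.3 and 65.8 CPM against 137, 162 and 160 CPM (1.69 ± 0.24, adjusted p = 0.00234). In wild type, replicate 3 was the highest of the 3 libraries in each of these, but still below every knockout library.

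Genes that act in DNA synthesis rose as well, by different amounts. Mcm2, Mcm3 and Mcm5, subunits of the replicative helicase, rose by 0.52 ± 0.09, 0.72 ± 0.12 and 0.86 ± 0.12 (adjusted p = 0.00576, 0.00566 and 0.00243). Rrm2, which supplies deoxynucleotides, rose by 1.68 ± 0.24 (adjusted p = 0.00243) and Tyms by 1.2 ± 0.22 (adjusted p = 0.00868). Aurka (0.56 ± 0.22) and E2f1 (0.90 ± 0.24) did not pass. The number of members that rose was 22 to 26 when 1 library was omitted and 21 with the salivary components, under which the list's median was 1.98. None of 12 clustered histone genes passed (median 0.29); their messages lack a poly(A) tail.

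Because the mitotic genes rose together, their promoters were searched on both strands for TTTGAA, the core of the element bound by the DREAM and MuvB complexes, and for CCAAT, the NF-Y site. The promoters of Cdk1 (chr10:69352863-69353162, minus strand) and Ccnb2 (chr9:70421505-70421804, minus strand) are printed from RefSeq on GRCm38.p6, 250 bases before to 50 after the start, as examples of members with both, with the motifs in capitals on either strand.
Cdk1: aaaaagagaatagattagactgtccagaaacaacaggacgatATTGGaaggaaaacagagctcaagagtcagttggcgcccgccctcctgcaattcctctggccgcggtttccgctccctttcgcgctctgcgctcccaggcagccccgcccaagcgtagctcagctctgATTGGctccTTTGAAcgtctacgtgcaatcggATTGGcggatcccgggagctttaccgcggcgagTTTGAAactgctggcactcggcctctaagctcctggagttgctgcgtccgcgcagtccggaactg
Ccnb2: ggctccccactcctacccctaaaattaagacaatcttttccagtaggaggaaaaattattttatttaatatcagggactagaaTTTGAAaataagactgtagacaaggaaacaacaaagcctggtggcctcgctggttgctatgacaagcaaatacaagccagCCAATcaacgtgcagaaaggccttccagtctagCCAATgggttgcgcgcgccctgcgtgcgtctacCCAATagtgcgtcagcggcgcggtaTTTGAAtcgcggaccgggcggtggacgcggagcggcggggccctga

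Of the 25 members with a promoter in the table, 13 held TTTGAA, 20 held CCAAT and 12 held both (48.0%). Among 12236 tested genes with a promoter these shares were 15.3% for TTTGAA, 42.1% for CCAAT and 7.18% for both, and over all 27025 promoters they were 20.2%, 41.1% and 8.97%. Split after the counts were seen, both motifs were in 11 of 16 mitotic members and in 1 of 9 replication members. Over the 527 genes that rose and have a promoter, 26.6% held TTTGAA and 52.4% held CCAAT, against 14.8% and 35.7% of the 196 that fell. A match describes the letters only and was not tied to binding.

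The same search for AGGTCA, a half-site shared by many nuclear receptors, gave 5 of 15 type 17 genes with a promoter in the table (33.3%), against 15.6% of tested genes and 18.1% of all promoters. Il17a (chr1:20730655-20730954, plus strand) and Il17f (chr1:20784221-20784520, minus strand) each held 1 such match, in capitals below on whichever strand it lies.
Il17a: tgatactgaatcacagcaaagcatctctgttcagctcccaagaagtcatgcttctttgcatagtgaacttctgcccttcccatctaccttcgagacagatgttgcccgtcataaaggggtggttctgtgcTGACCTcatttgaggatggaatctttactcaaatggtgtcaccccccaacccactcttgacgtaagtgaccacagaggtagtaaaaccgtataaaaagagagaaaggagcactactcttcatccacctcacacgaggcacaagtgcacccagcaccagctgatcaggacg
Il17f: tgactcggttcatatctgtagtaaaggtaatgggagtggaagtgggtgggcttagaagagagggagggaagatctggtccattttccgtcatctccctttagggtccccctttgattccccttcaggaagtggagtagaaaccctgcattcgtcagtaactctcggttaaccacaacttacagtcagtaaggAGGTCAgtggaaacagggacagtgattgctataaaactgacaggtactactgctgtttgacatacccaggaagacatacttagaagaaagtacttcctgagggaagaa

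Constant genes of several immunoglobulin classes were higher in the knockout. Igha (ENSMUSG00000095079), the constant region of IgA, was at 6.85, 7.79 and 6.72 CPM in wild type and at 224, 282 and 281 CPM in the knockout (5.20 ± 0.49, adjusted p = 0.000275). Ighg2b, of IgG2b, was at 27.4, 27.3 and 26.4 CPM against 292, 211 and 122 CPM (2.94 ± 0.54, adjusted p = 0.00964). The wild-type values were nearly equal in both genes, while the knockout values of Ighg2b spread widely. Ighg2c, of IgG2c, was at 8.87 to 12.1 CPM against 267, 63.1 and 39.7 CPM, with KO_se replicate 1 far above the other libraries. Its log2 fold change was 3.55 ± 0.94 (adjusted p = 0.0485), and without KO_se replicate 1 the adjusted p was 0.178. Of the 6 fits of that kind it passed only without KO_se replicate 3 (0.041).

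Light chain constant genes rose by smaller factors. Iglc1, Iglc2 and Igkc rose by 1.42 ± 0.16, 1.00 ± 0.14 and 1.09 ± 0.21 (adjusted p = 0.00128, 0.00232 and 0.0118). Ighm, the constant region of IgM, was at 1062 ± 138 and 1453 ± 144 CPM (SD, n = 3) and did not pass (0.45 ± 0.13, adjusted p = 0.0586). Of 12 constant genes 8 rose and 0 fell (median 1.30), with 6 to 8 when 1 library was omitted and 4 with the salivary components. Of 198 variable segments tested, 27 rose and 0 fell (13.6% against 5.17% over all genes), with a positive log2 fold change in 182 and a median of 0.92. The calls covered 11 of 98 heavy chain, 15 of 96 kappa and 1 of 3 lambda segments, which share sequence with each other. Immunoglobulin genes together took 0.293, 0.213 and 0.255% of counts in wild type and 0.658, 0.597 and 0.455% in the knockout (exact permutation p = 0.1, the smallest possible).

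Genes of antibody-secreting cells moved in both directions. Of 17 measured, 8 rose, Irf4 among them, and 2 fell (58.8% called, against 5.17% of all genes, median 0.43). Mzb1, a chaperone of antibody assembly, had means of 20.7 ± 3.63 and 51.6 ± 11.7 CPM (SD, n = 3; 1.32 ± 0.19, adjusted p = 0.00276). Jchain, which joins IgA and IgM into polymers, was at 35.9, 22 and 46.6 CPM against 245, 121 and 129 CPM (2.24 ± 0.44, adjusted p = 0.0131; 0.0527 without WT_se replicate 1). Xbp1, a regulator of the secretory pathway in plasma cells and in gland cells, went the other way, at 206, 209 and 246 CPM against 144, 106 and 114 CPM (-0.86 ± 0.14, adjusted p = 0.00488). Prdm1, the plasma cell regulator Blimp-1, rose by 0.95 ± 0.25 (adjusted p = 0.0462) and did not pass whichever library was omitted (0.0537 to 0.141). The other gene of the list that fell, Cd28, is also a T cell gene and is given below. The count of risers was 5 without WT_se replicate 1 and 6 or 7 with any other library omitted, that of falls was 2 without KO_se replicate 3 and 1 otherwise, and 0 of the 17 passed in either direction with the salivary components.

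Of 14 B cell identity genes, 2 rose (14.3%, against 5.17% of all genes called). All 14 had a positive log2 fold change, as had 49.2% of all genes. The median was 0.55, and 0.32 with the salivary components, when 2 passed as well. Those that rose were Cd79b, a chain of the B cell receptor (0.94 ± 0.12, adjusted p = 0.00172), and Ms4a1, which encodes CD20. Ms4a1 was at 223, 175 and 176 CPM in wild type and 343, 379 and 312 CPM in the knockout (0.85 ± 0.14, adjusted p = 0.00527). Without KO_se replicate 3, in which the list's level lay nearest to wild type, 9 of the 14 passed.

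MHC class II genes rose in 6 of 11 (54.5%, against 5.17% of all genes called, median 0.52). H2-Aa and H2-Oa, an antigen-presenting chain and a modulator of peptide loading, rose by 0.73 ± 0.13 and 0.91 ± 0.15 (adjusted p = 0.00866 and 0.00557) and kept their calls whichever library was omitted. The count was 3 without WT_se replicate 1 or WT_se replicate 3, 2 without WT_se replicate 2, KO_se replicate 1 or KO_se replicate 2, 9 without KO_se replicate 3 and 1 with the salivary components. Germinal centre and follicular helper genes rose in 4 of 15 (26.7%, median 0.81). Mybl1 (1.89 ± 0.42, adjusted p = 0.0232), Cxcr5 (0.6 ± 0.15, adjusted p = 0.0352) and Mef2b (1.56 ± 0.39, adjusted p = 0.0369) were among them. For this list the count was 0 without WT_se replicate 2 or KO_se replicate 1, 1 without WT_se replicate 1 or KO_se replicate 2, 2 without KO_se replicate 3, 4 without WT_se replicate 3 and 0 with the salivary components.

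Some genes of naive and resting T cells were lower. Of 16 measured, 5 fell and 0 rose (31.2% called, against 5.17% of all genes, median -0.28). Satb1, a chromatin organizer of T cells, was at 726, 651 and 649 CPM in wild type and 509, 441 and 381 CPM in the knockout (-0.61 ± 0.10, adjusted p = 0.00593). Lef1, a transcription factor of naive T cells, was at 219, 200 and 204 CPM against 137, 117 and 148 CPM (-0.63 ± 0.10, adjusted p = 0.00472). S1pr1, the receptor by which lymphocytes leave the node, had means of 730 ± 82.5 and 520 ± 11 CPM (SD, n = 3; -0.49 ± 0.10, adjusted p = 0.0195), and it did not pass without WT_se replicate 1 (0.0855), KO_se replicate 1 (0.0655) or KO_se replicate 2 (0.0814).

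The other calls on that list were weaker. Cd3e (-0.47 ± 0.10, adjusted p = 0.0215) and Cd28 (-0.58 ± 0.15, adjusted p = 0.044) passed without KO_se replicate 3 (0.0221 and 0.0194) but not with any other library omitted. Ccr7 (-0.15), Tcf7 (-0.37), Cd4 (-0.28) and Cd8a (-0.26) did not pass. The count was 2 without WT_se replicate 1, KO_se replicate 1 or KO_se replicate 2, 3 without WT_se replicate 2 or WT_se replicate 3, 6 without KO_se replicate 3 and 1 with the salivary components.

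**Figure D3:**
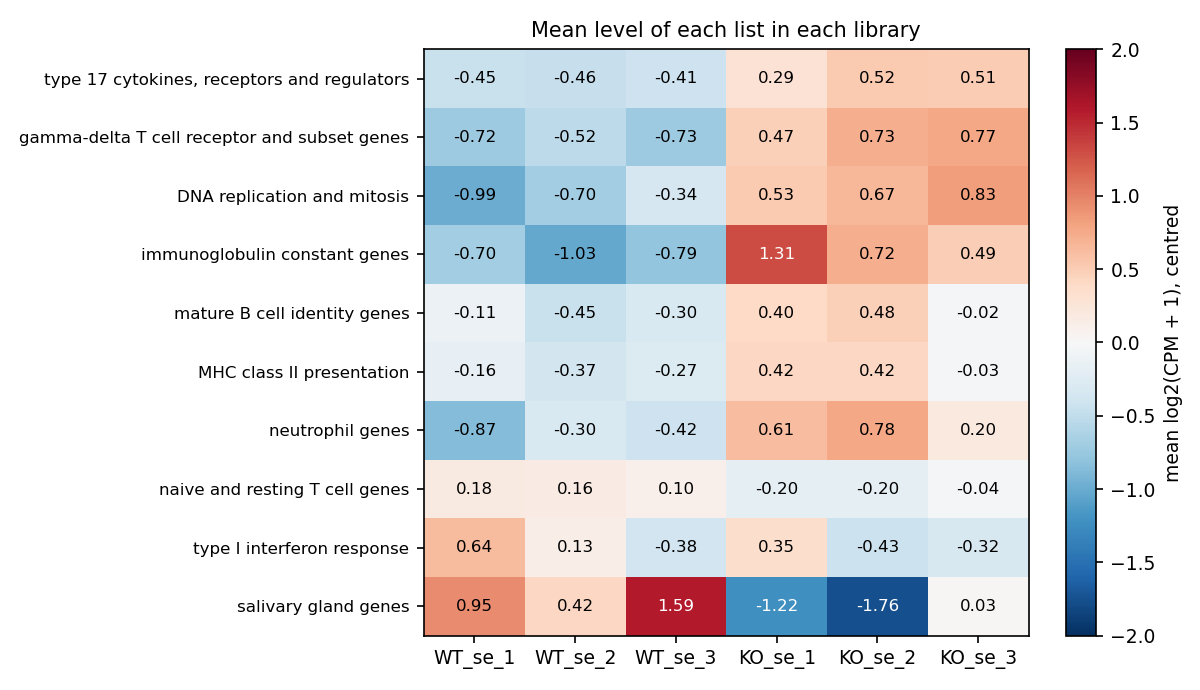
Mean log2(CPM + 1) of the members of 10 gene lists (one line of cells each) in each sensitized library (columns), centred for each list on the 6 libraries. The type 17, γδ, cell cycle and immunoglobulin lists are below 0 in the 3 WT_se libraries and above 0 in the 3 KO_se libraries, while the salivary list runs from 1.59 in WT_se replicate 3 to -1.76 in KO_se replicate 2.

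Neutrophil genes had positive log2 fold changes in 18 of 18 (median 1.27), and 6 passed (33.3%, against 5.17% of all genes). S100a8, a calcium-binding alarmin, was at 11.6, 26.2 and 21.1 CPM in wild type and 92.8, 99 and 62.1 CPM in the knockout (2.11 ± 0.39, adjusted p = 0.00988). Lcn2, which withholds iron from bacteria and is induced by IL-17, rose by 1.66 ± 0.34 (adjusted p = 0.0168; 0.061 without WT_se replicate 1 and 0.0737 without KO_se replicate 2). Ly6g, the defining surface marker, was at 0.432 to 0.643 CPM against 1.15 to 2.02 CPM and did not pass (adjusted p = 0.0596). The count was 1 without WT_se replicate 1, 2 without KO_se replicate 2, 4 to 6 without each of the other libraries, and 0 with the salivary components. Of 12 IL-17 response genes, 3 rose (S100a8, S100a9 and Lcn2, all also on the neutrophil list), 1 of them without WT_se replicate 1, 2 without KO_se replicate 2 and 0 with the salivary components.

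Other myeloid and stromal lists were close to the 5.17% called over all genes. Passing genes were 1 of 13 for monocytes, 1 of 14 for node macrophages, 1 of 18 for dendritic cells and 1 of 16 for stroma and high endothelium, with medians of 0.17, 0.09, 0.17 and 0.20. The monocyte gene was Ccr2, a chemokine receptor that γδ T cells of type 17 also carry, at 24.2 ± 2.98 and 58.8 ± 9.02 CPM (SD, n = 3; 1.28 ± 0.22, adjusted p = 0.00733), and the dendritic cell gene was Ly6d. The macrophage and stromal genes were Vcam1 and Cxcl13. Vcam1 (0.68 ± 0.15, adjusted p = 0.023) passed only without WT_se replicate 2 or KO_se replicate 3, and Cxcl13, the chemokine of B cell follicles (1.79 ± 0.47, adjusted p = 0.046), only without KO_se replicate 1 (adjusted p up to 0.0836 and 0.147 otherwise). None of 13 mast cell and basophil genes passed (median -0.39), nor did any of 12 erythroid genes (median -0.75).

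Interferon genes had mostly negative log2 fold changes. In the type I interferon list 16 of 20 were negative (median -0.43), 2 fell and 1 rose (15.0% called, against 5.17% of all genes). Rsad2, the antiviral enzyme viperin, was at 22.8, 13 and 9.81 CPM against 9.12, 4.24 and 3.12 CPM (-1.46 ± 0.38, adjusted p = 0.0467), and Ifi44 fell by 1.4 (adjusted p = 0.0262). Each lost its call without WT_se replicate 1 (0.163 and 0.0963), WT_se replicate 2 (0.0687 and 0.0595) or KO_se replicate 2 (0.164 and 0.0776), and Rsad2 also without KO_se replicate 3 (0.119). The groups overlap in the level of the whole list: the centred levels were 0.64, 0.13 and -0.38 in wild type against 0.35, -0.43 and -0.32 in the knockout. With the salivary components 0 of the 20 passed in either direction, with a median of -0.47. Of 14 guanylate-binding proteins and immunity-related GTPases, 1 fell, Irgm1 (-0.59 ± 0.13, adjusted p = 0.0192; not without WT_se replicate 1, 0.0773, KO_se replicate 1, 0.0512, or KO_se replicate 2, 0.0907).

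**Figure D4:**
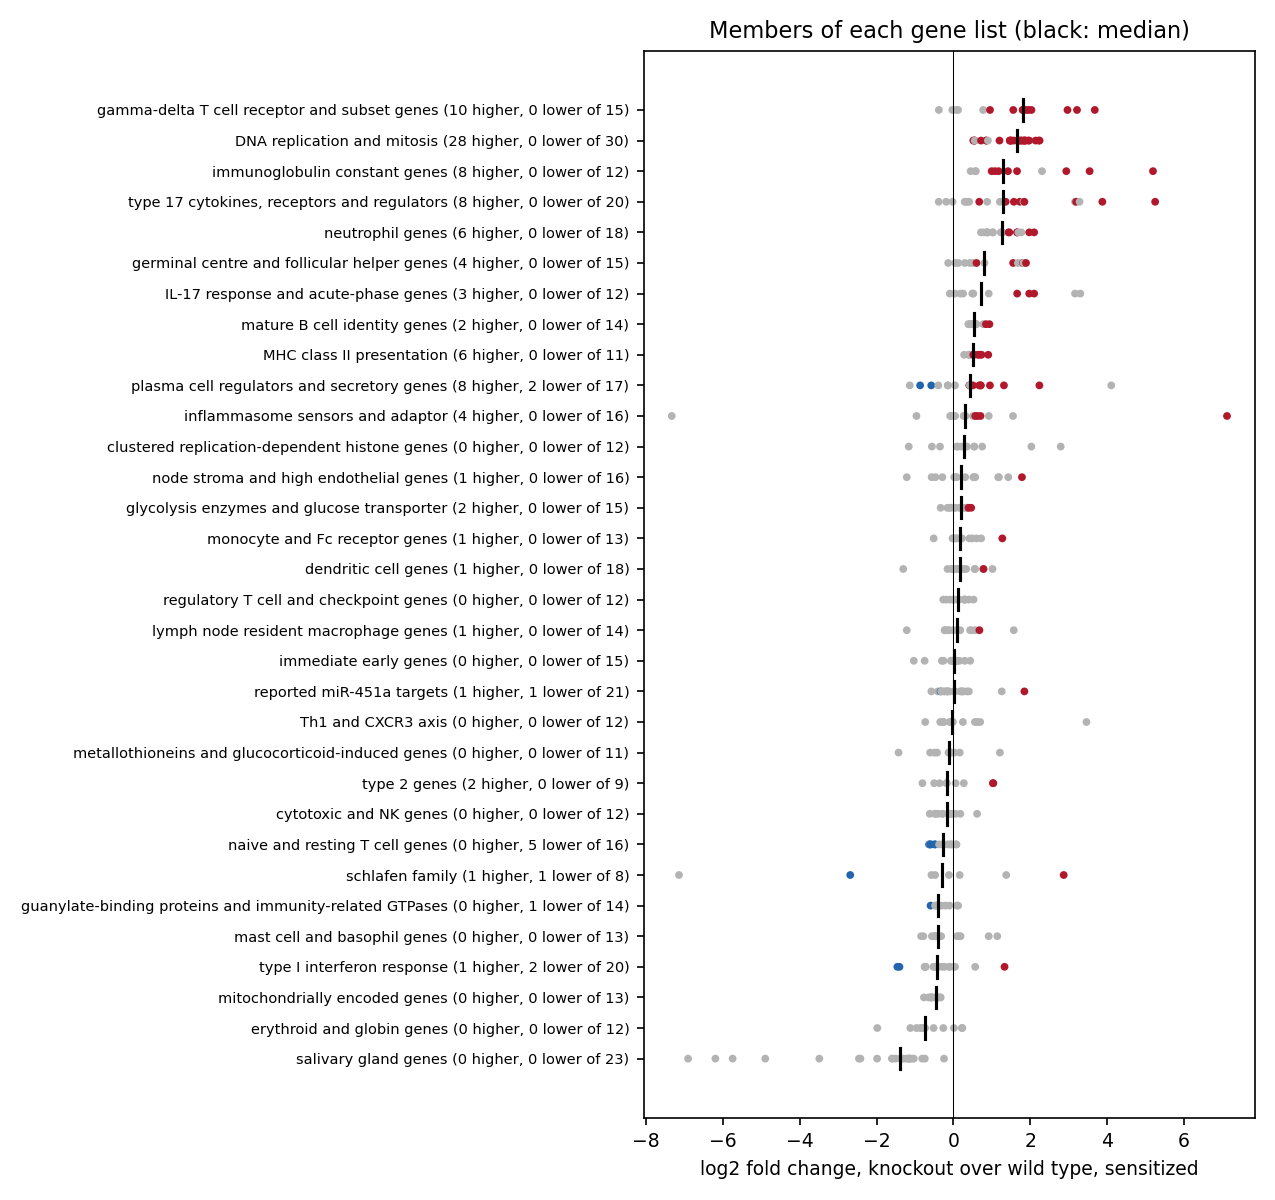
Log2 fold change (horizontal axis) of each measured member of 32 gene lists (vertical axis, ordered by median), with red for members that rose, blue for members that fell, grey for members that did not pass and a black bar for the list's median. The γδ and cell cycle lists have the highest medians, 1.81 and 1.67, and the salivary list the lowest, -1.38.

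A few genes differed sharply from near neighbours or copies. Slfn8 and Slfn9, adjacent schlafen genes on chromosome 11, moved in opposite directions. Slfn8 was at 48.5, 36.4 and 26.9 CPM in wild type and 5.83, 6.18 and 5.36 CPM in the knockout (-2.69 ± 0.19, adjusted p = 1.6e-05). Slfn9 was at 5.73, 5.89 and 4.72 CPM against 46.6, 33.8 and 39.4 CPM (2.88 ± 0.15, adjusted p = 2.05e-06). The 2 genes are close copies, so how the counting divided reads between them is uncertain. None of the other 6 schlafen genes measured passed, among them Slfn1 (-0.47 ± 0.14), Slfn2 (0.17 ± 0.09) and Slfn5 (-0.57 ± 0.21). The lowest log2 fold change of the family, -7.15, belonged to another of these 6. With 1 library omitted, 1 or 2 of the 8 were called higher and 1 or 2 lower.

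Naip6, a sensor of the NAIP family that starts the NLRC4 inflammasome, was nearly silent in wild type, with 4, 0 and 0 counts, against 312, 205 and 284 counts in the knockout (7.13 ± 0.65, adjusted p = 0.000756). Its copies Naip5 (9.01 ± 1.31 and 8.5 ± 2.13 CPM; SD, n = 3) and Naip1 (1.56 ± 0.52) did not pass, and the assignment of reads among the copies is uncertain. Of the 16 inflammasome genes, 3 more rose by small factors: the adaptor Pycard (0.57 ± 0.10, adjusted p = 0.00697) and the caspases Casp1 (0.63 ± 0.12, adjusted p = 0.0133) and Casp4 (0.71 ± 0.12, adjusted p = 0.00603). With the salivary components these 3 no longer passed (0.152, 0.246 and 0.0997), while Naip6 did (0.00995). The list did not move only upward: 4 of the 16 had negative log2 fold changes, the lowest -7.34, though 0 passed as lower. With 1 library omitted, 0 or 1 of the 16 was called lower.

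The genes next to the targeted locus were examined by their order on chromosome 11. Among the 100 tested genes on either side of Mir144, 10 rose and 4 fell (7.0%, against 5.17% of all genes), and among the nearest 25 on either side 4 rose and 1 fell (10%). In the next 100 on either side the share was 6.5%, and on the rest of the chromosome 6.23%. Of those 200 nearest genes, 4 were called in the same direction in challenged nodes too (2.0%, against 0.16% of all genes): Xaf1, Slfn9, Slfn8 and AA465934. Among the nearest 25 on either side that count was 0. AA465934 was at 1.11 ± 0.422 and 7.45 ± 0.362 CPM (SD, n = 3; 2.74 ± 0.32, adjusted p = 0.00128). Xaf1, an interferon-induced gene, was at 21.2, 13.9 and 7.69 CPM against 40.7, 34.2 and 32.6 CPM (1.33 ± 0.27, adjusted p = 0.0142; 0.0516 without KO_se replicate 1), opposite in sign to the interferon genes that fell.

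Dhx40 and Trim25, among the next 100 genes on either side, were also called in both states. Dhx40, a putative RNA helicase, was at 63.6, 51.5 and 58.7 CPM against 28.2, 24.2 and 22.8 CPM (-1.21 ± 0.11, adjusted p = 0.00016). Trim25, a ubiquitin ligase of antiviral signalling, fell by 0.57 (adjusted p = 0.0303), with 0.115, 0.0512, 0.0787 and 0.0813 without WT_se replicate 1, WT_se replicate 2, KO_se replicate 2 and KO_se replicate 3. Ypel2, the neighbour of Dhx40, fell by 1.82 (adjusted p = 0.00866; 0.0921 with the salivary components). The labels do not give the strains of the 2 groups, so differences of genotype at linked genes and effects of the lost microRNA cannot be told apart here.

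Messages with a seed match showed no excess of higher values. Of 14498 tested genes whose annotated 3′ UTR was searched, 327 held AACGGTT at least once. Of these, 9 rose and 5 fell (4.28%), with a median log2 fold change of -0.03, against 6.40% called and a median of -0.00 in the 14171 without a match. The risers with a match included the spindle and cytokinesis genes Ndc80 (0.70 ± 0.13), Ect2 (1.61 ± 0.31) and Cep55 (1.4 ± 0.29), and those that fell included Lef1. Of 21 reported miR-451a targets measured, 1 rose and 1 fell, the latter being Bcl2, an inhibitor of apoptosis (-0.33 ± 0.08, adjusted p = 0.0278; 0.068 to 0.0938 when 1 library was omitted), with a median of 0.02. A match was found in 5 of the 21, and none of those 5 passed. Cab39 and Ywhaz, whose sites are printed above, were at 188 ± 12.4 and 191 ± 5.10 CPM and at 515 ± 20.9 and 523 ± 10.9 CPM (SD, n = 3), log2 fold changes of 0.03 ± 0.07 and 0.02 ± 0.07.

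The largest fold changes belonged mostly to low genes. Inhba, which encodes a subunit of activin, had 0 counts in wild type and 25, 14 and 22 in the knockout, at least 17.5-fold higher against a floor of 3 counts over the wild-type group (adjusted p = 0.00768). Cd300ld2, a member of a family of myeloid receptors with close copies, was at least 20.1-fold higher on the same floor (adjusted p = 0.0124). Adam12, a membrane metalloprotease, rose from 0.599 ± 0.255 to 6.54 ± 1.66 CPM (SD, n = 3; 3.45 ± 0.48, adjusted p = 0.00232). A second gene ID with the symbol Myl12b had 0 counts in wild type and 695, 29 and 263 in the knockout (adjusted p = 0.0457, and 0.0508 to 0.114 when 1 library was omitted). The table holds another ID of that symbol, so the assignment of its reads is uncertain. Msc and Cryba4, also among the 10 largest rises, each lost the call in 4 or 5 of the 6 fits with 1 library omitted.

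Among the 10 largest falls, Slfn8 alone passed in all 15 alternatives. Egf, which encodes a growth factor made in quantity by the granular ducts of the mouse submandibular gland, was at 188, 21 and 33.3 CPM against 7.85, 6.84 and 11.8 CPM (-3.19 ± 0.77, adjusted p = 0.0326), with WT_se replicate 1 far above the others and an adjusted p of 0.132 without it. Odam (-2.50 ± 0.51, adjusted p = 0.0164) lost its call without WT_se replicate 2 or KO_se replicate 2 (0.0519 and 0.0776). With the salivary components the adjusted p of Egf and Odam was 0.322 and 0.244. Bpifa6, Vstm4, Frmpd1, Efs, Esrrg and Tex15 missed the threshold in 3 to 6 of the 6 fits with 1 library omitted. Cdc42bpg, a kinase acting on the cytoskeleton, was the most stable fall beside Slfn8, at 45, 42.4 and 50.3 CPM against 14.8, 10.3 and 13.6 CPM (-1.83 ± 0.13, adjusted p = 1.6e-05; chosen for mention after its values were seen, as were AA465934, Dhx40 and Ypel2).

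The challenged nodes, which share no library with the sensitized ones, show which of these differences were also present a day later, after the ear challenge. Of the 1035 genes, 760 (73.4%) had the same sign in KO_DTH against WT_DTH, as had 53.3% of all genes tested. The genes that rose when sensitized had a median log2 fold change of 0.15 in challenged nodes, against 0.67, and those that fell had -0.15, against -0.53. Since these genes were chosen by their sensitized values, smaller medians in other libraries would follow in part from that choice. In the challenged comparison 120 genes (0.599%) passed, and 32 of the 1035 passed there in the same direction, 25 higher and 7 lower. The salivary share was opposite in that comparison, 2.08 to 3.38% in WT_DTH and 4.21 to 10.1% in KO_DTH.

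Type 17 and γδ genes were among the 32. Il17a differed by 3.27 ± 0.33 in log2 in challenged nodes (adjusted p = 0.000819), Tcrg-C1 by 2.72 ± 0.25, Cd163l1 by 2.92 ± 0.36, Trdv4 by 3.61 ± 0.54 and Tcrg-V6 by 3.74 ± 0.75. Of the 15 γδ genes 9 were higher in challenged nodes (median 1.5, against 1.81 when sensitized). Of the 20 type 17 genes 3 were, Il17a and Il17re among them, and the median of that list was 0.18, against 1.29. Igha (4.53 ± 0.48), Naip6 (11.34 ± 0.87), Slfn9 (3.55 ± 0.15), Slfn8 (-2.50 ± 0.18) and Dhx40 (-1.26 ± 0.11) also differed in both states. Igha was the only 1 of the 12 immunoglobulin constant genes called when challenged, with a list median of 0.07 against 1.30 when sensitized. Immunoglobulin genes together took 0.372 to 0.543% of counts in WT_DTH and 0.329 to 0.515% in KO_DTH, which overlap. Il17f did not pass when challenged (1.27, adjusted p = 0.241), and its interaction of genotype with challenge did not pass either (adjusted p = 0.0697).

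Few genes of the cell cycle and B cell lists were called in challenged nodes. In challenged nodes 1 of 30 cell cycle genes was called (Ube2c, 1.23 ± 0.25, adjusted p = 0.047), with a median of 0.71 against 1.67 when sensitized. None of 14 B cell genes (median -0.12), 11 MHC class II genes (median -0.09) or 18 neutrophil genes (median -0.20) was called there. The interaction itself passed in 422 genes of 20034 (2.11%) and in 115 of the 1035, among them Cdk1 (-1.53, adjusted p = 0.0435), Ms4a1 (-1.02, adjusted p = 0.0282) and Iglc1 (-1.45, adjusted p = 0.0237). It did not pass for Kif11 (adjusted p = 0.0798), Mki67 (adjusted p = 0.18) or S100a8 (adjusted p = 0.0596), so for these a difference between the states is not shown.

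A further 7 genes passed in both states with opposite sign, lower in the sensitized and higher in the challenged knockout. They were Parva, Esrrg, Slc6a8, Bcar1, Wtip, Frmpd1 and Acta2, and the interaction passed for each (adjusted p = 0.0237). Acta2, smooth muscle actin, was at 7.09 ± 0.492 and 2.75 ± 0.602 CPM when sensitized (SD, n = 3; -1.37 ± 0.36, adjusted p = 0.0476) and differed by 2.62 ± 0.39 when challenged (adjusted p = 0.0143). Their sign in each comparison is that of the salivary share. With the salivary components the sensitized log2 fold change of Acta2 was -0.62 (adjusted p = 0.501). None of the other 6 passed with them either (adjusted p from 0.187 for Parva to 0.669 for Frmpd1). As stated above, a call lost with these components cannot be assigned to the gland share, whose part was not tested. Leaving out 1 library ended the sensitized call of Acta2 and Wtip in all 6 fits, of Esrrg, Slc6a8 and Bcar1 in 5, of Frmpd1 in 4 and of Parva in 2.

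**Figure D5:**
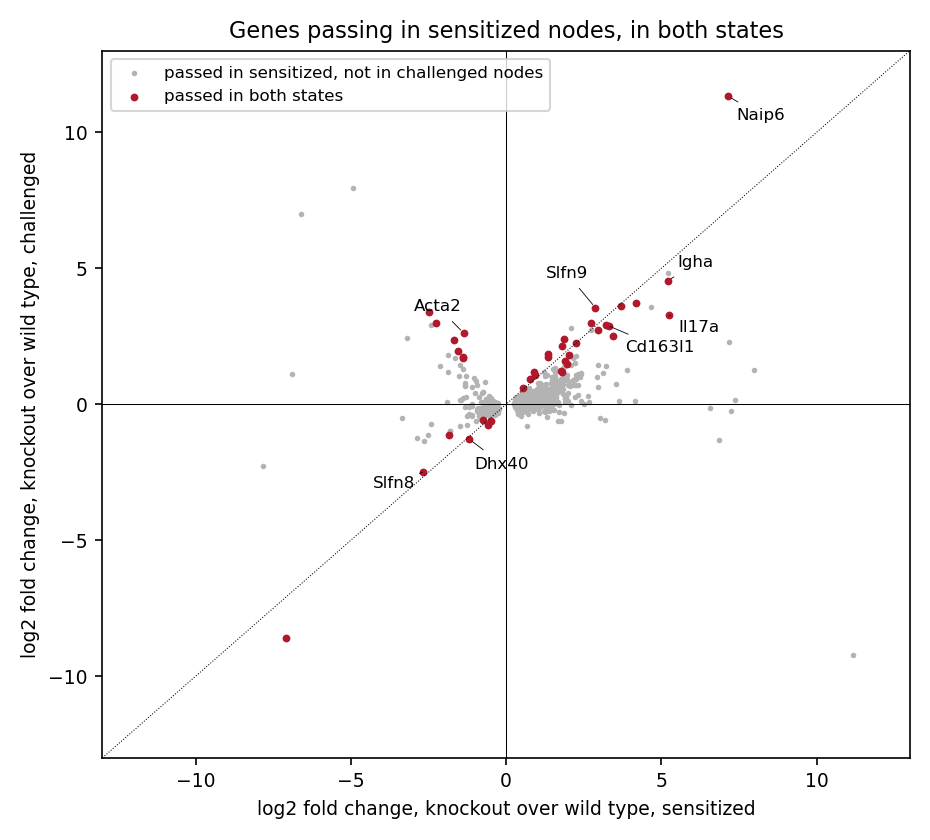
Log2 fold change of knockout over wild type in challenged nodes (vertical axis) against that in sensitized nodes (horizontal axis) for the 1035 genes that passed when sensitized, with the dotted line marking equal values. Red points passed in both states: 32 lie in the quadrants of equal sign, Il17a, Igha and Naip6 among them, and 7, with Acta2, at the upper left.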

How the data were processed

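The series has 12 RNA-seq libraries of mandibular nodes; the labels put 3 in each of 4 groups. The authors deposited a table of estimated counts for 56941 genes. Per the submitters' processing notes, fastp 0.23.2, HISAT2 2.2.1, StringTie 2.2.1 and GRCm39 were used; the annotation release and the strand setting of the counting are not given in the sources used here. Per the labels' protocols the library kit was directional. The deposited values were whole, so no rounding was needed.

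One edgeR 4.0.16 model (quasi-likelihood, TMM, filterByExpr with a minimum count of 10) took all 12 libraries and a mean for each group, leaving 8 residual degrees of freedom. P-values were two-sided and adjusted by Benjamini-Hochberg over 20034 genes, with a threshold of 0.05. CPM were computed with edgeR on the TMM-scaled library size. DESeq2 1.42.0, other filters and scalings, a sex covariate, 2 salivary components (of the 23 listed genes) as covariates, a replicate block and leaving out each library were alternatives. GENCODE M21 on GRCm38 gave symbols (51948 IDs matched), gene order and the annotated 3′ UTRs, and RefSeq on GRCm38.p6 the promoters. Since that build differs from that of the table, a planned window of 10 Mb around Mir451a was replaced by the 100 tested genes on either side of Mir144. IDs without a symbol held 0.3257 to 0.5435% of counts.

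In data simulated for this comparison with 20034 genes and 200 changed, 40 of 100 genes changed 2-fold and 63 of 100 changed 4-fold were recovered, with 5 unchanged genes called. The named genes are a fixed set (Ccr6, Il23r, Il17a, Il17f, Il22 and the other T helper regulators and cytokines Foxp3, Il10, Gata3, Il13, Il4, Tbx21 and Ifng, with Mir144; some members are not reported here), the 10 largest rises and falls without predicted genes or receptor segments and with a higher group mean of at least 20 counts, up to 4 members of each list by smallest p and other members of lists described whole, up to 10 called genes near Mir144 by smallest p, and genes called in both states, which were added after their values were seen. Members and lists were chosen with earlier results of these data known. The scripts ran under Python 3.11.15 (matplotlib 3.10.9, pandas 2.3.3) and R 4.3.3.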

Additional observations from a re-analysis of the deposited data

Results flagged for a closer look

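For the genes below the difference between knockout and wild type itself differed between challenged and sensitized nodes by edgeR's interaction contrast (challenged minus sensitized, log2, adjusted p under 0.05). The contrast subtracts the sensitized difference, so for genes called by that difference its sign is partly set by the choice. Il17a differed less when challenged (-1.99), though it passed in both states. Of the other genes that rose when sensitized, the interaction was -20.39 for Myl12b (second ID), -7.21 for Cd300ld2, -7.47 for Inhba, -1.53 for Cdk1 and -0.54 for Mcm2. Among B cell and antibody genes it was -1.02 for Cd79b, -1.02 for Ms4a1, -0.90 for Blk, -1.23 for Mzb1, -0.73 for Tnfrsf13b, -0.69 for Irf4, -1.45 for Iglc1 and -1.16 for Iglc2, among MHC class II genes -1.02 for H2-Oa and -0.82 for H2-Aa, and it was -0.89 for Ly6d. Plac8, which passed in neither state, had -0.74. The values for Myl12b (second ID), Cd300ld2 and Inhba are not measured sizes, because these genes had no count in WT_se. On the floor of 3 counts their sensitized rises were at least 283-, 20.1- and 17.5-fold. The challenged difference of Myl12b (second ID), -9.23, did not pass (adjusted p = 0.157 by edgeR).

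Interactions were positive for genes that fell when sensitized: 12.86 for Vstm4, 5.64 for Egf, 5.90 for Frmpd1, 5.33 for Efs, 5.23 for Esrrg, 3.53 for Tex15, 3.07 for Bcar1, 3.15 for Slc6a8, 3.54 for Parva, 4.01 for Wtip, 3.99 for Acta2, 1.13 for Xbp1 and 0.64 for Cd3e. They were also positive for genes that did not pass when sensitized: the epithelial gene Epcam (3.47), Sox13 of γδ T cells (3.07), the salivary genes Slc12a2 (2.56), Klk1b9 (8.77) and Klk1b22 (11.37), the mitochondrial gene mt-Nd4l (2.14), Klf9 (1.08) and the metallothionein gene Mt1 (2.34). The summed salivary share was higher in wild type when sensitized (7.11 to 14.6% against 2.85 to 6.88%) and lower in wild type when challenged (2.08 to 3.38% against 4.21 to 10.1%); its part in these interactions was not tested.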

How the results depend on the processing

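Against 1035 calls (754 higher, 281 lower, 309 of over 2-fold), omitting 1 library at a time gave 369 to 748 (303 to 539 higher, 66 to 232 lower, 170 to 309 by more than 2-fold); fewer libraries entered those fits. With 2 salivary components 172 passed (136 higher, 36 lower, 119 by more than 2-fold). Without replicate 3 of both groups, the libraries of largest salivary share and those with Xist above Ddx3y, 441 passed (325 higher, 116 lower). The lower calls were 154 with no filter on low counts and 479 when genes needed a mean of 50 counts or more. By DESeq2 Wald test 2301 passed (1316 higher, 985 lower, 543 by more than 2-fold), 57.2% of them higher against 72.9%; the cause of that difference was not tested. DESeq2 size factors gave 1034 calls, the 6 libraries alone 1011 and sex as a covariate 1051. Deviations from the group means over 5000 genes correlated at 0.281, 0.048 and 0.232 between same-numbered KO_se and WT_se libraries. Over all 18 same-numbered pairs of the series the range was -0.301 to 0.288. The labels do not say what a shared number means, and replicate 3 had Xist above Ddx3y in both groups. Whether the numbers pair the samples is therefore not settled, and with a replicate block 880 passed. No named gene that passed changed sign in any of the 15 alternatives, and of 145 such genes 51 passed in all of those that gave a value. The share of globin and erythroid genes, not called, was -0.225 points and ran from -0.57 without KO_se replicate 2 to 0.0429 without KO_se replicate 3. At these depths genes of a few counts, such as Csf2 and Ccl20, were tested on little evidence, so not passing does not show equal levels.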
